A study of Mus musculus with 20 samples.

Results

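The cortical excitatory neuron markers are 9 protein-coding genes, Slc17a7, Tbr1, Neurod6, Emx1, Neurod2, Neurod1, Slc30a3, Lamp5 and Cux2. They were taken from the 39179 genes of the count tables by a fixed list of gene symbols matched to the Ensembl gene identifiers, with no threshold on expression. Their level was followed as a sign of cortical tissue in dissected striatum.

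RNA was sequenced from the striatum, both dorsal and ventral and from both hemispheres, of 20 male mice of generation 17 of a selection experiment. The High-Active line had been bred for home cage activity and the Control line had not been selected, and both descended from the same intercross of inbred strains. The tissue was cut from a coronal slab and freed of cortex, medial septum and olfactory tubercle by hand. Mice of about 6.5 months were injected with saline or with 0.25 mg/kg d-amphetamine and their tissue was collected 2 hours later. Each line was split into a saline and an amphetamine group, giving 4 groups of 5 mice. By the sire and dam labels some mice of a line were full siblings. There, 8 parental pairs gave the 10 Control mice and 5 pairs the 10 High-Active mice. The authors instead describe every mouse as coming from a separate family. The depth was 32388971 to 53710713 counted reads per mouse, at which 3 counts correspond to between 0.0559 and 0.0926 CPM (counts per 1e+06 counted reads).

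The principal neurons of the cerebral cortex release glutamate and arise in the dorsal part of the embryonic forebrain, where Emx1 and then Neurod2, Neurod6 and Tbr1 are switched on. They load glutamate into synaptic vesicles through the transporter that Slc17a7 encodes. The principal neurons of the striatum are GABAergic and arise in the ventral forebrain, so cell bodies that carry these transcripts are known mainly from cortex, claustrum, hippocampus and amygdala, all near the plane of a striatal dissection. In bulk tissue, fewer cells of a type and less RNA per cell cannot be told apart.

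The sequence just before the start is shown for 3 of the genes whose levels moved together. NeuroD proteins bind the E-box, a short motif written CANNTG that reads the same on both strands. Binding to these genes, and any part of it in their shared levels, was not tested. Each sequence is 240 bases on the strand of its gene, with E-boxes in capitals. It runs from base 250 to base 11 before the RefSeq start in GRCm38.p6. The windows of Tbr1 and Emx1 reached into an annotated exon and are not shown. None of the 3 shown did. They lie at chr7:45163671-45163910 on the plus strand (Slc17a7), chr6:55681274-55681513 on the minus strand (Neurod6) and chr11:98329656-98329895 on the minus strand (Neurod2).
Slc17a7: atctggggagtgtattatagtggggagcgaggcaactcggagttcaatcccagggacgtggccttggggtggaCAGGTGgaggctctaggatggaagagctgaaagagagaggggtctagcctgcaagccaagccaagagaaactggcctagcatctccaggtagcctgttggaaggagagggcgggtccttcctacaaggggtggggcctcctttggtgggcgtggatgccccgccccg
Neurod6: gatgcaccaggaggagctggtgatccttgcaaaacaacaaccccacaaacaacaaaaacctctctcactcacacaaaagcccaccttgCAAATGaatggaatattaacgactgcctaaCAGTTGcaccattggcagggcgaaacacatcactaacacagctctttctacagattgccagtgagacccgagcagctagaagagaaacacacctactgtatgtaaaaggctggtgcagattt
Neurod2: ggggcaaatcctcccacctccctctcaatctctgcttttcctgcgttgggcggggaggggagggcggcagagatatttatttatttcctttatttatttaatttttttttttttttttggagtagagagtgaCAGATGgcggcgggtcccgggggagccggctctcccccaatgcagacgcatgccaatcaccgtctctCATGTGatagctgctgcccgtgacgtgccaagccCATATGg
Slc17a7 held 1 E-box, beginning 177 bases before the start. Neurod6 held 2, beginning at 162 and 132 bases, and Neurod2 held 3, beginning at 118, 51 and 17 bases. An E-box was present in 10 of the 12 windows of the 9 genes, and in 65.0% of all 32851 windows of this length. The narrower word CAGATG, counted on both strands and itself an E-box, was present in 2 of the 12 windows and in 14.1% of all. Both windows of Slc30a3 lacked an E-box.

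All 9 genes passed the filter on low counts, more than 1 CPM in at least 3 mice, which kept 14792 genes. CPM values are scaled by TMM, a normalization for library composition. Per kilobase of annotated exon, Slc17a7 was the most abundant at 62.3 ± 35.3 CPM per kb (mean ± SD, n = 20 mice). Lamp5 followed at 33.4 ± 6.86, Tbr1 at 9.46 ± 4.69, Neurod6 at 8.76 ± 5.24 and Slc30a3 at 7.58 ± 4.37 CPM per kb. Neurod2 stood at 3.94 ± 2.27, Cux2 at 3.28 ± 0.674, Emx1 at 1.33 ± 0.762 and Neurod1 at 0.846 ± 0.448 CPM per kb. The steps from Lamp5 to Tbr1, from Slc30a3 to Neurod2 and from Cux2 to Emx1 held in 20 of 20 mice. Emx1 was above Neurod1 in 15 mice. Slc17a7 was above Lamp5 in 15 mice, with a mean difference of 28.9 ± 31.1 CPM per kb (SD over 20 mice). The neighbours Tbr1 and Neurod6 kept this order in 12 mice, Neurod6 and Slc30a3 in 13, and Neurod2 and Cux2 in 11, and the mean difference within each of these 3 pairs was likewise smaller than its SD over mice.

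Markers of striatum were abundant in every library. The 11 genes of striatal projection neurons, among them the dopamine receptors Drd1 and Drd2 and the signalling protein gene Ppp1r1b, summed to between 4448 and 7317 CPM. The summed CPM of the 9 cortical markers ranged from 203 to 1034, or 3.06% to 20.9% of the striatal sum. These percentages compare transcript levels and are not shares of tissue. In mouse 499, the lowest, Lamp5 and Cux2 gave 74.3 and 27.1 CPM of the cortical sum. In mouse 872, the highest, Slc17a7 gave 678 CPM of it. The striatal sum varied 1.65-fold between the extreme mice and the cortical sum 5.09-fold.

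**Figure D1:**
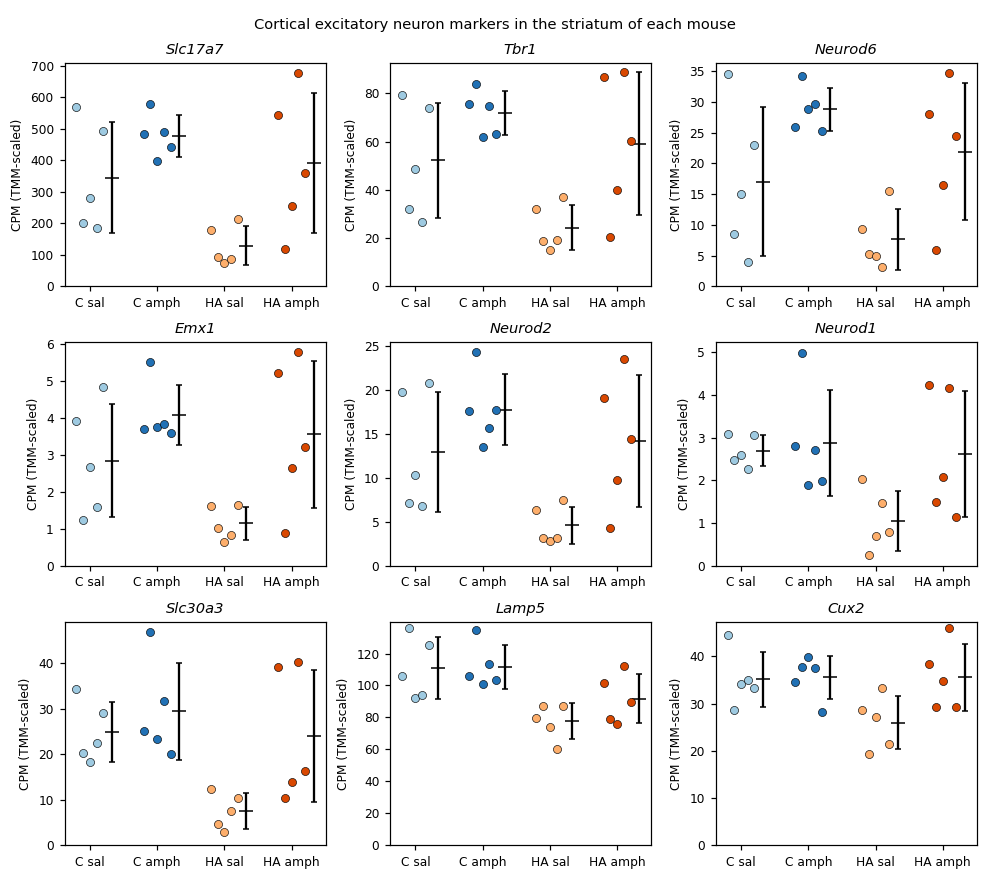
CPM of each marker in each of the 20 mice (points), by group (C, Control; HA, High-Active; sal, saline; amph, amphetamine), with the group mean and SD beside them (n = 5 per group); every vertical axis starts at 0. The 5 High-Active saline mice sit low for most markers, while Control saline and High-Active amphetamine mice spread over a wide range, from 184 to 568 and from 119.6 to 678 CPM for Slc17a7.

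Slc17a7 encodes vesicular glutamate transporter 1, the main transporter of cortical glutamatergic terminals. In Control saline mice it stood at 568 CPM in mouse 411, 200.3 in mouse 448, 279 in mouse 469, 184 in mouse 477 and 494 in mouse 883. In Control amphetamine mice it stood at 483, 578, 397, 489 and 442 CPM in mice 369, 407, 409, 454 and 457. In High-Active saline mice it was 178, 93.4, 74.4, 86.0 and 215 CPM in mice 197, 483, 499, 871 and 886. High-Active amphetamine mice held both the highest value of the study, 678 CPM in mouse 872, and one of the lower ones, 119.6 in mouse 415, with 545, 255 and 359.7 CPM in mice 192, 487 and 905. The extremes were 9.11-fold apart, and no Control mouse was as low as 5 of the 10 High-Active mice or as high as 1 of them.

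Slc30a3 encodes the zinc transporter of glutamatergic vesicles. Control saline mice held 34.3, 20.3, 18.2, 22.5 and 29.0 CPM of Slc30a3, in the order of mice used for Slc17a7. Control amphetamine mice held 25.2, 46.9, 23.4, 31.6 and 20.1 CPM. High-Active saline mice held 12.4, 4.60, 2.81, 7.50 and 10.4 CPM, all below every Control mouse. In High-Active amphetamine mice, 192 and 872 reached 39.2 and 40.3 CPM, while 415, 487 and 905 stayed at 10.4, 13.9 and 16.3, again below every Control mouse.

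Among the transcription factors, Neurod2, which acts in maturing excitatory neurons, was 19.8, 7.16, 10.3, 6.82 and 20.8 CPM in the Control saline mice in the same order. It was 17.6, 24.3, 13.5, 15.7 and 17.7 CPM in Control amphetamine mice. It was 6.31, 3.11, 2.86, 3.18 and 7.46 CPM in High-Active saline mice. High-Active amphetamine mice ranged from 4.33 CPM in mouse 415 to 23.5 in mouse 872, with 19.1, 9.79 and 14.4 CPM in mice 192, 487 and 905. The 10 mice with the lowest Slc17a7 also held the 10 lowest values of Neurod2, although the highest Neurod2 was in mouse 407 and the highest Slc17a7 in mouse 872.

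Tbr1, a T-box factor of early born deep layer neurons, was 79.4, 32.2, 48.5, 26.8 and 74.0 CPM in Control saline mice. Control amphetamine mice held 75.5, 83.9, 61.8, 74.8 and 63.3 CPM, and High-Active saline mice 32.0, 18.6, 15.1, 19.1 and 36.9 CPM. High-Active amphetamine mice held 86.6, 20.2, 39.9, 88.8 and 60.0 CPM in mice 192, 415, 487, 872 and 905. No Control mouse was as low as 4 of the High-Active mice or as high as 2 of them.

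The remaining transcription factors differed widely in how far they ranged. Neurod6, which marks differentiated excitatory neurons of the cortex, ranged from 3.10 to 34.7 CPM over the 20 mice with a median of 19.8. Emx1, a homeobox gene of the dorsal forebrain, ranged from 0.640 to 5.77 CPM with a median of 2.94, and passed 1 CPM in 16 mice. Neurod1 ranged from 0.248 to 4.99 CPM with a median of 2.16, and its lowest count was 10 reads, in mouse 483. Cux2, a homeobox gene of upper layer neurons, ranged only from 19.4 to 46.0 CPM with a median of 33.7, a 2.37-fold span.

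Lamp5, a lysosome-associated membrane protein gene that also marks a class of cortical GABAergic interneurons, spanned 2.25-fold. Control saline mice held 106, 136, 92.0, 94.3 and 125 CPM, and Control amphetamine mice 106, 135, 101, 113 and 103 CPM. High-Active saline mice held 79.6, 87.0, 74.3, 60.4 and 87.3 CPM, all below every Control mouse. High-Active amphetamine mice held 102, 79.2, 75.6, 112 and 89.7 CPM, so that no Control mouse was as low as 8 of the 10 High-Active mice.

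The comparison of the lines asks whether the amount of these transcripts differed between High-Active and Control striatum, averaged over saline and amphetamine. Slc30a3, Neurod2, Slc17a7, Tbr1 and Lamp5, 5 of the 9 markers, were lower in High-Active mice in edgeR's quasi-likelihood test with Benjamini-Hochberg adjustment over all 14792 genes and a threshold of 0.1. Over all genes, 14.5% passed this test and 6.90% passed it with the lower level in High-Active mice. The estimate was below 0 for all 9 markers, with a median log2 fold change of -0.75 against 0.00 over all genes. These are not 9 separate signs, since Slc17a7, Tbr1, Neurod6, Emx1 and Neurod2 moved together between mice (r 0.88 to 0.99). The list was also chosen with earlier results of these data known. Slc30a3 fell by 1.01 on the log2 scale (SE 0.28, adjusted p = 0.037), from 27.2 ± 8.70 CPM in Control to 15.8 ± 13.3 in High-Active mice (mean ± SD, n = 10 mice). Neurod2 fell by 0.91 (SE 0.29, adjusted p = 0.057), Slc17a7 by 0.85 (SE 0.29, adjusted p = 0.0731) and Tbr1 by 0.69 (SE 0.25, adjusted p = 0.0949) on the same scale. Lamp5 fell by 0.40 (SE 0.09, adjusted p = 0.0148), the smallest difference of the 5 and the smallest standard error. The log2 fold changes of Neurod6 (-0.77), Emx1 (-0.75), Neurod1 (-0.75) and Cux2 (-0.22) did not pass, with edgeR adjusted p between 0.115 and 0.206.

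With 1 mouse left out at a time, the test kept the calls of Slc30a3 and Lamp5 in 20 of 20 fits. Neurod2 kept its call in 17, and lost it without mouse 411, 871 or 883, with an edgeR adjusted p of up to 0.114. Slc17a7 kept its call in 12, and lost it without mouse 407, 411, 415, 454, 487, 499, 871 or 883, with an adjusted p of up to 0.135. Tbr1 kept its call in 6 fits, those without mouse 192, 197, 448, 477, 872 or 886, and otherwise reached an adjusted p of up to 0.169. The number of markers called was 7 with DESeq2, where 19.0% of all genes were called, and 8 with a likelihood-ratio test on robust dispersions, where 15.3% were called. It was 3 (Slc30a3, Lamp5 and Neurod2) with counts summed over siblings of the same treatment, where 11.2% of genes were called. This summing joined only mice 499 and 871 and left 19 libraries, since all other siblings differed in treatment. A limma-voom fit with the parents as a block called 5 markers and 12.7% of all genes. In that fit Tbr1 lost its call (log2 fold change -0.74, adjusted p = 0.1009) and Neurod1 gained one (-0.93, adjusted p = 0.074), while with sibling counts summed Neurod1 had an edgeR adjusted p of 0.149.

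The lines were also compared within each treatment, with 5 mice against 5. In saline mice the log2 fold changes, High-Active minus Control, were larger in size, -1.73 for Slc30a3 (SE 0.35), -1.50 for Neurod2 (SE 0.40), -1.42 for Slc17a7 (SE 0.39) and -0.51 for Lamp5 (SE 0.13). Slc30a3, Neurod2 and Lamp5, 3 of the 9, passed the test in these mice, where 3.45% of all genes were called, and Slc17a7 missed the threshold with an edgeR adjusted p of 0.110. The values of Slc30a3, Lamp5 and Neurod1 did not overlap between the lines in saline mice, all lower in High-Active mice, where 4.23% of all genes did not overlap and 1.98% were apart in that direction. In amphetamine mice, none of the 9 passed the test, where 0.810% of all genes were called, and 1 (Lamp5, log2 fold change -0.28, SE 0.11) had an unadjusted p under 0.05. The log2 fold changes of the other 8 markers there lay between -0.39 for Neurod6 and 0.00 for Cux2. The difference between the treatments is the interaction below, which passed for none of the markers.

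**Figure D2:**
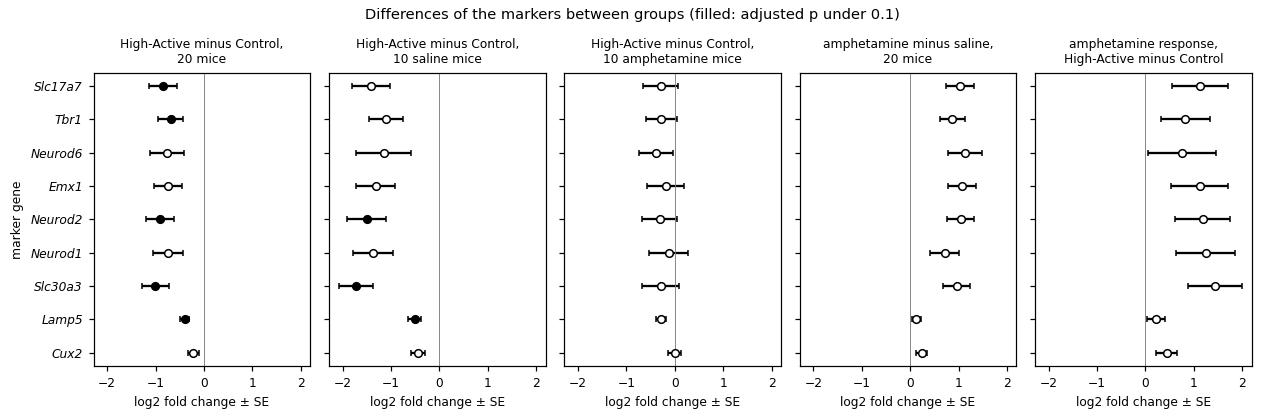
Log2 fold change of each marker with its standard error (bars) for the lines in all, saline and amphetamine mice, for amphetamine against saline, and for the difference of the amphetamine responses between the lines; filled points have an edgeR adjusted p under 0.1. The line differences lie between -1.73 and -0.44 in saline mice and between -0.39 and 0.00 in amphetamine mice, while all 9 amphetamine differences lie above 0.

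The amphetamine comparison asks whether the drug altered these transcripts 2 hours after injection, averaged over the lines. None of the 9 markers passed edgeR's quasi-likelihood test, which called 0% of the 14792 genes, while 8 markers and 1844 genes had an unadjusted p under 0.05. All 9 estimates, again not separate signs, were above 0, with a median log2 fold change of 0.96 against -0.01 over all genes. The values were 1.14 for Neurod6 (SE 0.35), 1.07 for Emx1 (SE 0.29), 1.04 for Neurod2 (SE 0.29), 1.03 for Slc17a7 (SE 0.29) and 0.96 for Slc30a3 (SE 0.28), with adjusted p between 0.198 and 0.216. Lamp5, at 0.13 (SE 0.09), and Cux2, at 0.24 (SE 0.11), had the smallest log2 fold changes. The call depended on the test. DESeq2 called 6 markers higher after amphetamine (Slc17a7, Tbr1, Neurod6, Emx1, Neurod2 and Slc30a3), where 2.64% of genes were called, and the likelihood-ratio test with robust dispersions called the same 6, where 3.10% of genes were called. The quasi-likelihood test also called 6 of the 9 when mouse 415, the lowest High-Active amphetamine mouse, was left out, where 339 genes in all (2.30%) were called. Without mouse 411, Slc17a7 was the 1 marker called (adjusted p = 0.099), among 128 genes in all (0.867%).

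A total of 6 families held mice of both treatments. In 4 of them each amphetamine mouse had more Slc17a7 than its saline siblings, and in 2 less. The widest gap was in a High-Active family, with 74.4 and 86.0 CPM in saline mice 499 and 871 against 678 CPM in amphetamine mouse 872, and the others were 93.4 against 255 CPM, 178 against 359.7 CPM and, in a Control family, 200.3 against 578 CPM. The amphetamine mouse was lower in a Control family, 397 against 568 CPM, and in a High-Active family, 119.6 against 215 CPM. Neurod2 had the direction of Slc17a7 in each of these families, but Lamp5 did not. Lamp5 was lower in amphetamine mice 407, 409, 415 and 487 than in their saline siblings, and higher in mice 872 and 905. For Slc17a7, full siblings of different treatment thus stood up to 9.11-fold apart, as far as any mice of the study. The full siblings that shared a treatment, mice 499 and 871, held 74.4 and 86.0 CPM.

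The interaction asks whether the amphetamine response differed between the lines. All 9 estimates, again not separate signs, were above 0, from a log2 value of 0.22 for Lamp5 (SE 0.18) to 1.43 for Slc30a3 (SE 0.56). None passed edgeR's quasi-likelihood test, which called 0% of all genes, and Slc30a3 alone of the markers and 440 genes in all had an unadjusted p under 0.05. The likelihood-ratio test with robust dispersions called 0.0406% of genes and no marker.

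The covariation of the markers was then examined between mice of the same line and treatment, with the group means removed from log2 CPM. Slc17a7, Tbr1, Emx1, Neurod2 and Neurod6 rose and fell together. Pearson's r was 0.99 for Slc17a7 with Tbr1 (rho = 0.99) and with Neurod2 (rho = 0.97), 0.96 with Emx1 (rho = 0.95) and 0.93 with Neurod6 (rho = 0.97), n = 20 mice. Each of these 4 relations had an adjusted p of 4e-05 for r, from permutations of the mice within groups adjusted over 36 pairs, and the unadjusted p of 1e-05 is the smallest that 100000 permutations can give, for r and for rho alike. With the 2 mice of most extreme Slc17a7 left out, r was 0.98 with Tbr1, 0.98 with Neurod2, 0.93 with Emx1 and 0.90 with Neurod6. Within Control mice alone r was 0.98, 0.97, 0.92 and 0.93 for Tbr1, Neurod2, Emx1 and Neurod6, and within High-Active mice alone 0.99, 0.995, 0.98 and 0.95.

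Slc30a3 followed Slc17a7 less closely, with r = 0.83 and rho = 0.77 (permutation test, adjusted p = 0.00023 and 0.0031, n = 20), and r = 0.77 without the 2 farthest mice. Neurod1, Lamp5 and Cux2 stood apart from the others. Their r with Slc17a7 was 0.51 (adjusted permutation p = 0.071), 0.54 (adjusted permutation p = 0.068) and 0.38 (adjusted permutation p = 0.19), which fell to 0.42, 0.43 and 0.16 without the 2 farthest mice, with rho of 0.60, 0.56 and 0.33 (adjusted permutation p = 0.02, 0.045 and 0.22). Neurod1 was instead closest to Slc30a3, with r = 0.75 and rho = 0.84 (adjusted permutation p = 0.012 and 0.0014, and r = 0.76 without the 2 farthest mice), and to Cux2, with r = 0.72 and rho = 0.66 (adjusted permutation p = 0.0066 and 0.013, and r = 0.67 without them). Lamp5 and Cux2 showed no relation at this number of mice, with r = -0.12 and rho = -0.09 (adjusted permutation p = 0.64 and 0.72, and r = -0.22 without the 2 farthest mice). The relation of Neurod1 and Cux2 had r = 0.33 in Control and 0.86 in High-Active mice, a difference that was not tested. Of the 36 pairs, 17 had an adjusted permutation p under 0.05 for r and 25 for rho. The median r over the pairs was 0.53. The r of Lamp5 with Slc17a7 was 0.24 in Control and 0.73 in High-Active mice, a difference that was likewise not tested. Neurod1, Lamp5 and Cux2 thus went against the shared label in part, in that none of them followed Slc17a7 closely over all mice. Lamp5 and Cux2 did not follow each other closely either.

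**Figure D3:**
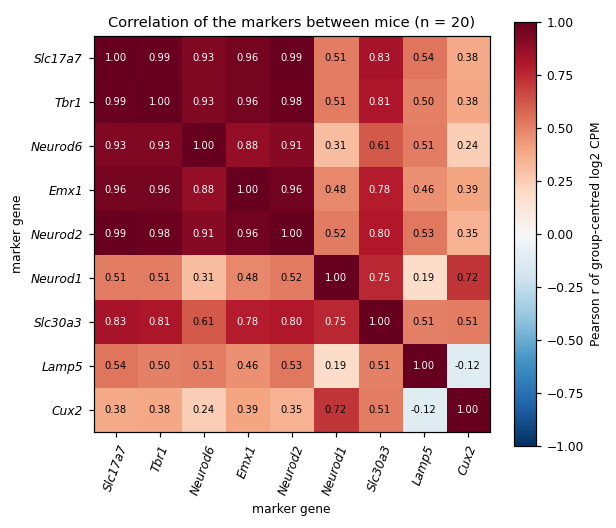
Pearson r between each pair of markers over 20 mice after group means were removed from log2 CPM (colour and printed value). The 5 genes in the upper left corner reach 0.88 to 0.99 among themselves, whereas Lamp5 with Cux2 has -0.12.

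The proportions between the coupled genes differed in how far they were kept. Neurod2 CPM were between 3.20% and 4.21% of Slc17a7 CPM in every mouse, a 1.32-fold span against the 9.11-fold span of Slc17a7 itself. Tbr1 was between 13.1% and 22.2% of Slc17a7 (1.70-fold), with 17.1% to 22.2% in High-Active saline mice and 13.1% to 17.4% in the other mice. Emx1 was between 0.61% and 1.09% (1.79-fold). Neurod6, from 2.18% to 7.27%, spanned 3.33-fold and Slc30a3 3.24-fold in their share of Slc17a7. Lamp5 CPM went from 16.5% of Slc17a7 CPM to 99.8%, a 6.04-fold span, and the share of Cux2 spanned 6.07-fold.

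**Figure D4:**
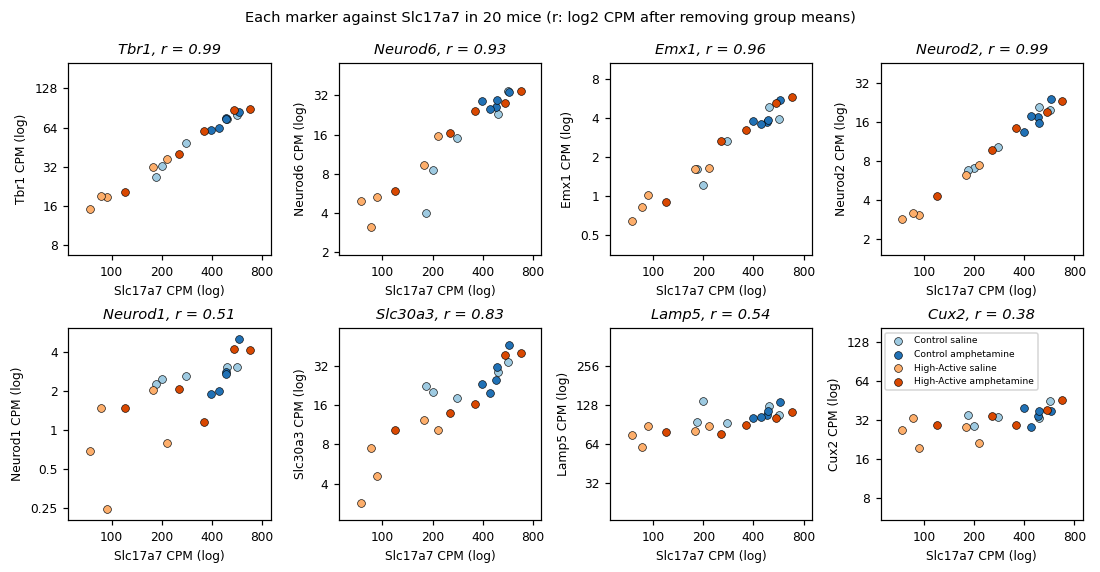
CPM of each of the other 8 markers against CPM of Slc17a7 in the 20 mice, both on logarithmic axes, coloured by group, with r of group-centred log2 CPM. All vertical axes span the same fold range. The points of Tbr1, Emx1, Neurod2 and Neurod6 rise steeply, whereas those of Lamp5 and Cux2 lie flatter.

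Across all 14791 other genes tested, the median r with Slc17a7 was -0.01, with the central 90% of genes between -0.54 and 0.60, and 171 genes (1.16%) exceeded 0.8. Tbr1 and Neurod2 ranked first and second of all genes, Emx1 eighth and Neurod6 twentieth. These are descriptions over 20 libraries that share their composition. The 10 genes outside the lists most like the mean z-score of the 9 markers were Stx1a, Rtn4r, Cck, Dkkl1, Rtn4rl2, Rap1gap2, Tmem178, Ccn3, Crhbp and Nptx1, with r between 0.93 and 0.99. Stx1a, a syntaxin of the presynaptic membrane, came first with r = 0.99 and ranged from 29.2 to 105 CPM. Cck, the neuropeptide cholecystokinin, had r = 0.96 and ranged from 18.6 to 114 CPM, and Rtn4r and Rtn4rl2, receptors for inhibitors of axon growth, had 0.98 and 0.94. Of these 10 genes, which were chosen for following markers that were themselves lower in High-Active mice, 6 passed the line test, all lower, where 6.90% of all genes passed in that direction.

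Other genes of cortical excitatory neurons were read from lists of cell type and region markers. Of 8 further layer and projection neuron genes, 1 passed the line test, a share near the 14.5% of all genes that passed. It was Bhlhe22, a basic helix-loop-helix factor, which fell by 0.84 on the log2 scale in High-Active mice (SE 0.24, edgeR adjusted p = 0.0438). The r of the list with Slc17a7 had a median of 0.57. It was lowest for Etv1 (-0.05), followed by Rorb (0.37) and Scnn1a (0.45). It was among the highest for Fezf2 (0.90) and Hs3st2 (0.89). All of these genes were named after their values were seen. Of 6 claustrum and layer 6b genes, 2 passed and both were lower in High-Active mice, Gnb4 by 0.34 (SE 0.10, adjusted p = 0.0462) and Ccn2 by 0.67 (SE 0.24, adjusted p = 0.0872), and the median r of this list with Slc17a7 was 0.69. The summed level of the layer list was 136 to 224 CPM in Control and 121 to 236 in High-Active mice, and that of the claustrum list 104 to 203 and 87.8 to 174 CPM. Of the 6 dorsal telencephalon regulators, 4 were tested and only Eomes passed, higher in High-Active mice by 1.68 on the log2 scale (SE 0.55, adjusted p = 0.0684) from a level of 0.283 ± 0.191 CPM in Control mice. Neurog1 and Neurog2, progenitor genes, did not pass the filter on low counts and stayed at or under 0.472 CPM.

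Genes of other vesicular glutamate transporters, of regions bordering the striatum and of other cell types were read in the same way. The transporter genes Slc17a6 and Slc17a8 formed 1 list of 4 genes with Zic1 and Tcf7l2, which mark septum and thalamus. These 4 genes had r between -0.64 and -0.33 with Slc17a7. Of these, only Tcf7l2 (-0.64) lay outside the central 90% of all genes. Their summed level was 63.9 to 121 CPM in Control and 70.2 to 249 CPM in High-Active mice. Tcf7l2, a Wnt effector abundant in thalamus, was the 1 of these 4 that passed the line test, higher by 1.01 on the log2 scale in High-Active mice (SE 0.32, edgeR adjusted p = 0.0604). Over all 14792 genes, 14.5% passed this test, 1129 of them higher and 1020 lower in High-Active mice. Of 7 interneuron genes, Calb2, the calretinin gene, passed, a share near that of all genes. It was higher by 1.10 (SE 0.38, adjusted p = 0.0789). The r of these 7 with Slc17a7 ran from -0.76 for Lhx6 to 0.84 for Vip, both named after their values were seen, and their sum was 341 to 398 CPM in Control and 317 to 443 in High-Active mice. High-Active mice 197, 415, 487 and 871, named after their values were seen, held the 4 highest levels of Slc17a6 (69.5 to 96.0 CPM), Tcf7l2 (16.8 to 30.5 CPM) and Calb2 (61.7 to 80.2 CPM). Their Slc17a7 was 178, 119.6, 255 and 86.0 CPM. None of the 11 striatal projection neuron genes passed, with r between -0.17 and 0.24 with Slc17a7, and 10 of the 11 had a log2 fold change below 0, with a median of -0.12. Ppp1r1b and Penk had -0.15 (SE 0.09) and -0.08 (SE 0.09), and the lowest was that of Rgs9, at -0.29 (SE 0.11, adjusted p = 0.1015), named after its value was seen. Of 6 oligodendrocyte genes, Mbp and Mobp passed, higher in High-Active mice by 0.26 (SE 0.09, adjusted p = 0.0887) and 0.33 (SE 0.08, adjusted p = 0.0206). Of 5 astrocyte genes, Aldh1l1 (0.32, SE 0.07, adjusted p = 0.012) and Gja1 (0.19, SE 0.05, adjusted p = 0.0352) passed, also higher. The oligodendrocyte sum was 3770 to 6363 CPM in Control and 5246 to 6985 in High-Active mice, and the astrocyte sum 912 to 1034 and 923 to 1291 CPM. None of the 5 choroid plexus genes passed, and Ttr, the transthyretin gene, ranged from 0.948 to 815 CPM between mice, with a log2 fold change of 1.15 (SE 1.14). All 5 estimates were above 0, with a median of 0.61 and the lowest at 0.13 (SE 0.21) for Clic6. The choroid plexus sum was 20.5 to 735 CPM in Control and 31.4 to 899.9 CPM in High-Active mice, and its member Kcnj13 was at 0 in at least 1 mouse. The part of these other cell types and regions in the line difference of the cortical markers was not tested.

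**Figure D5:**
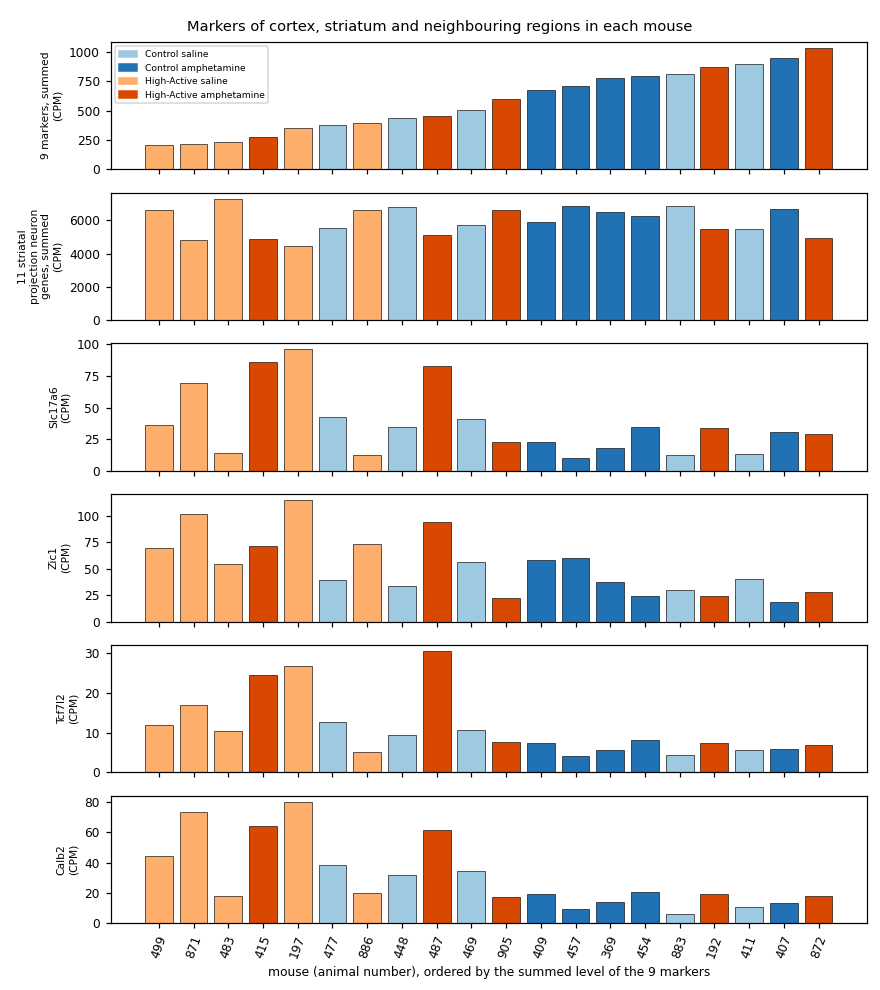
Levels in the 20 mice, ordered by the summed CPM of the 9 cortical markers, of that sum, of the summed CPM of 11 striatal projection neuron genes, and of Slc17a6, Zic1, Tcf7l2 and Calb2 (bars, CPM, each axis from 0, coloured by group). The cortical sum climbs from 203 to 1034 CPM while the striatal sum has no matching slope, and the tallest bars of Slc17a6, Tcf7l2 and Calb2 stand among mice with at most 450.4 CPM of cortical markers.

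Slc17a7 was set against 4 other measures of the mice, after group means were removed. With log2 counted reads, r was 0.39 (permutation p = 0.196) and rho 0.14 (permutation p = 0.581), n = 20, and r was -0.04 without the 2 mice farthest in depth. For body mass, home cage distance and the share of reads not on a gene, r lay between -0.25 and 0.34. The adjusted permutation p of r lay between 0.565 and 0.932 for all 4 measures. Home cage distance had the largest rho, 0.46 (unadjusted permutation p = 0.077), and r = 0.39 without the 2 farthest mice. Neurod1 shares 7.37% of its exon bases with Cerkl on the same strand and 5.64% with Gm26755 on the opposite strand, and reads in the shared parts cannot be assigned to 1 gene with certainty. The spans of Slc17a7, Slc30a3 and Cux2 also hold or overlap other annotated genes, for Slc30a3 and Cux2 on the opposite strand, but share no exon base with them. The strand setting of the counting is not given in the sources used here.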

How the data were processed

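Paired-end reads from stranded libraries of 20 mouse striata were aligned by the authors to GRCm38 with TopHat2 2.0.10 and Bowtie2 2.1.0 and counted on Ensembl genes with HTSeq 0.6.1, per the labels. The deposited values are raw counts per gene, 1 table per mouse, without normalization. Rows that name no gene (16.0% to 17.5% of reads) were left out of library sizes. Depth was 32388971 to 53710713 counted reads, and limits given from 3 counts cover counting error only. Replicates are separate mice.

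Genes above 1 CPM in at least 3 mice were fitted with edgeR 4.0.16 (TMM, quasi-likelihood test, 4 group means), with adjustment over all 14792 genes and a threshold of 0.1. Values per mouse are TMM-scaled CPM. Correlations used log2 CPM with a prior count of 2, centred by group, and 100000 permutations within groups. The fit was tested on simulated data. Alternatives used DESeq2 1.42.0, limma 3.58.1 with a block for parents (correlation 0.0264), other normalizations and filters, and each mouse left out. Exon lengths and overlaps came from GENCODE M21, and promoters from RefSeq. Symbols came from a separate list of gene names, with RefSeq synonyms where a symbol was missing. The authors counted on a different annotation release, so CPM per kb combine counts and exon lengths of different releases.

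The members and gene lists were chosen with earlier results of these data known. Named are all 9 members, list genes that passed the line test (where none passed, the 2 most abundant), and the 10 genes most correlated with the members. No 2 mice of a group had counts within sampling noise. A gene of the layer list is counted in that list but is not reported by name here.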

Additional observations from a re-analysis of the deposited data

Results flagged for a closer look

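Among 36 sets of 5 mice (9 markers in 4 groups), 1 held a mouse whose distance to the nearest other mouse, divided by the range of the set on the log2 scale, passed the 95% critical value of Dixon's test, 0.71. It was mouse 407 of the Control amphetamine group for Emx1, with 5.50 CPM against 3.82 CPM in the next mouse, a ratio of 0.851. Chance gives such a mouse in about 1 of 20 sets. The same mouse held the highest level of its group for every other marker except Cux2.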

How the results depend on the processing

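The median of all genes moved by under 0.1 on the log2 scale in the line comparison under every normalization. The markers called between the lines went from 5 to 8 with the likelihood-ratio test on robust dispersions. They went to 3 with counts summed over siblings of the same treatment, which joined only mice 499 and 871. They went to 3 in saline mice alone (501 genes) and to 0 in amphetamine mice alone (117 genes). Without single mice they went to between 2 and 7 (1381 to 2535 genes). In amphetamine mice alone Cux2 turned to 0.0005. For amphetamine, DESeq2 called 391 genes and 6 markers and the likelihood-ratio test 458 genes and 6 markers, against 0 and 0, and leaving out single mice gave 0 to 339 genes and 0 to 6 markers. For the interaction, the likelihood-ratio test called 6 genes and leaving out single mice 0 to 1, with 0 markers throughout. The median r of the 36 pairs was 0.53 with RLE size factors and library sizes alone, 0.53 with a prior count of 0.5, and 0.46 to 0.72 without single mice, lowest without mouse 872 and highest without mouse 448. The cause of these changes was not tested, except that the comparisons within a treatment use fewer mice. Apart from Cux2, the 27 log2 fold changes kept their direction in all alternatives. Counting error was largest for Neurod1 and Emx1, with as few as 10 and 28 reads in a mouse. The largest standard error of the line difference was that of Neurod6, at 0.35. The numbers of the mice are animal identities that no groups share, so mice were not paired by number. With the parents as a block, the line comparison called 5 markers, with Neurod1 in place of Tbr1, and the amphetamine and interaction comparisons called 0.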
